A study of Homo sapiens with 14 samples.

Results

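The 38 genes described here encode enzymes of glycolysis and other targets of the cellular response to low oxygen, together with HIF1A and EPAS1, the alpha subunits of its transcription factors. They were taken from a list of gene symbols, and all 38 were among the 24729 genes of the read count table. All 38 also passed the filter on low counts, which kept 14406 genes. By role, 17 are glycolytic enzymes, 19 are other hypoxia targets and 2 are HIF alpha subunits. The libraries came from K562, a human line of chronic myeloid leukemia whose cells have erythroid features. In 4 groups of 3 libraries the cells stably carried sgRNAs, the biotin ligase BirA and dCas9, a Cas9 without cutting activity, tagged with Flag and biotin. The sgRNAs were directed to the enhancer HS2 within the locus control region of the β-globin genes (sgHS2), to the fetal globin genes HBG1 and HBG2 (sgHBG), to several hypersensitive sites of the control region (sgHS1-5), or to no human sequence (sgGal4). A group of 2 libraries came from K562 cells with neither dCas9 nor an sgRNA (WT). The labels name no oxygen level and no low-oxygen treatment for any group. They do not say whether a group is a clone or a pool of cells, or whether its libraries are separate cultures, so p values measure only the spread between these libraries.

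Glycolysis turns glucose into pyruvate, and lactate dehydrogenase turns pyruvate into lactate when mitochondria do not take it up. When oxygen is ample, the EGLN prolyl hydroxylases mark HIF alpha subunits for binding by VHL and for degradation. When oxygen is scarce the subunits accumulate, pair with ARNT and bind short elements near genes of glucose uptake, glycolysis, vessel growth and acid export. HIF activity is controlled mainly at the level of protein, which mRNA levels do not show. Erythroid cells rely on glycolysis as they mature, since red cells lose their mitochondria, and BNIP3L takes part in that loss.

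The core of the element that HIF binds reads ACGTG or GCGTG, and the bases upstream of the members' start sites were searched for it in the RefSeq promoter windows of assembly GRCh38.p14. A window runs from 250 bases before to 50 bases after a start, and both strands were searched in its upstream part, so CACGT and CACGC count as matches and CACGTG counts as overlapping matches on both strands. Windows were listed for 34 of the 38 members and not for SLC2A3, VEGFA, BNIP3L and NDRG1. A match stood in 38 of the 64 windows of members (59.4%), against 15172 of 35116 windows of all genes (43.2%). ACGTG was present in 35.9% of the members' windows and 18.5% of all windows, and GCGTG in 34.4% and 32.2%. By role, 19 of 37 windows of glycolytic enzymes held a match (51.4%) and 17 of 24 windows of other hypoxia targets (70.8%). Windows of a gene with several starts can overlap, so these shares are a description. Of the 34 members, 28 had a match in at least 1 window, and EGLN3, LDHB, P4HA2, PGAM1, PKM and SLC2A1 had none. A match is not a shown binding site, and a window without a match says only that these letters are absent from it. The stretches below show the upstream bases of 7 members, LDHB and others that were called in at least 1 comparison, with matches in capitals, 5′ to 3′ on the gene's own strand. LDHA (chr11:18394363-18394502, plus strand) and LDHB (chr12:21657903-21658042, minus strand) are the lactate dehydrogenase pair and show the same distance from the start with and without matches. LDHA has 2 listed starts, and the window with the most matches is shown, while LDHB has 1 listed start. PGK1 (chrX:78104018-78104077, plus strand), ENO2 (chr12:6914440-6914479, plus strand), ANKRD37 (chr4:185396661-185396710, plus strand), EGLN1 (chr1:231422288-231422327, minus strand) and BNIP3 (chr10:131982014-131982073, minus strand) add further glycolytic enzymes, PGK1 and ENO2, and hypoxia targets outside glycolysis, ANKRD37, EGLN1 and BNIP3.
LDHA: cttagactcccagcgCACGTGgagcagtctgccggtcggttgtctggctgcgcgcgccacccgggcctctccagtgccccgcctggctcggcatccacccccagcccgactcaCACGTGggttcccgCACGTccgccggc
LDHB: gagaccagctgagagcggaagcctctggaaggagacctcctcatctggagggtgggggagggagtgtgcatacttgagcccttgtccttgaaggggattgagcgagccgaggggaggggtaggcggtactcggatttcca
PGK1: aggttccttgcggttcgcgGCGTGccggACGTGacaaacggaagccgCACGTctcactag
ENO2: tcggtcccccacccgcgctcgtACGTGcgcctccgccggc
ANKRD37: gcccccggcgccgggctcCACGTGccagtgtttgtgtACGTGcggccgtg
EGLN1: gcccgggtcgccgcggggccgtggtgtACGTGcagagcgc
BNIP3: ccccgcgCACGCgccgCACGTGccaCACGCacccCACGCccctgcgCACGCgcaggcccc

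Libraries held 5694448 to 11335831 counted reads, and levels are given as CPM, which are counts divided by a library's TMM-scaled size, in which 3 counts correspond to 0.262 to 0.486 CPM. All 10 erythroid markers had reads in every library, summing to 665 to 1938 CPM. Library sgGal4 1 stood apart from sgGal4 2 and 3 (χ² per degree of freedom 90.1 and 93.9, near 1 when counting error alone separates libraries). Against sgGal4 2 and 3, its median log2 deviation was 0.58 for the 10 members with the shortest transcripts and −0.24 for the 10 longest. Library sgHS2 2 also stood apart from sgHS2 1 and 3 (17.3 and 16.6). Over the genes tested, its deviations from its group mean correlated with those of sgGal4 1 (r = 0.68). The cause of this shared pattern was not tested. Libraries sgHS1-5 2 and 3 carried myeloid and B cell transcripts, with 6 myeloid markers summing to 2081 and 465 CPM against 112 CPM in sgHS1-5 1 and 48.2 to 208 CPM in the other groups. The sum of 5 B cell markers was 120 and 31.5 CPM in sgHS1-5 2 and 3, 9.07 CPM in sgHS1-5 1 and 1.93 to 4.74 CPM in the other groups. Library sgHS1-5 1 carried such transcripts at a lower level, with the myeloid marker MPO at 19.4 CPM, against at most 0.284 CPM in the other groups, and the B cell marker MS4A1 at 2.43 CPM, against 0 CPM in the other groups. The myeloid sums outside sgHS1-5 were mostly LYZ (35.1 to 203 CPM). Main counts below are also given with some of these 4 libraries left out.

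Per kilobase of transcript, GAPDH was the highest of the members and CA9 the lowest. The mean RPKM over the 5 group means was 1681 for GAPDH, 926 for ALDOA, 895 for ENO1, 541 for LDHB, 404 for TPI1, 354 for LDHA and 264 for PKM. ALDOA splits fructose bisphosphate, TPI1 interconverts the products, and the others act in the later steps. The highest of the other hypoxia targets were VEGFA, an angiogenic growth factor, at 108 RPKM and the glucose transporter SLC2A3 at 100.2 RPKM, while ANKRD37, ADM and CA9 were lowest at 2.97, 1.23 and 0.485 RPKM. Glycolytic enzymes took 1.15%, 1.32% and 1.14% of counted reads in the sgHS2 libraries, 0.931%, 0.926% and 0.921% in sgHBG, and 1.57%, 1.58% and 1.61% in sgHS1-5. They took 0.744%, 0.718% and 0.714% in sgGal4 and 0.827% and 0.839% in WT. The 5 groups did not overlap in this share, which was taken of counted reads without TMM scaling. The TMM factor of sgGal4 1 was 0.743, against 0.955 to 1.10 in the other libraries. With scaling by these factors, sgGal4 1 would lie above the WT and sgHBG libraries, so the separation does not hold for the scaled share. Other hypoxia targets took 0.223%, 0.199% and 0.222% in sgHS2, 0.142%, 0.142% and 0.140% in sgHBG, 0.192%, 0.178% and 0.189% in sgHS1-5, 0.0898%, 0.122% and 0.122% in sgGal4, and 0.131% and 0.129% in WT. In these summed shares, which abundant genes dominate, sgHS1-5 was highest for enzymes and sgHS2 highest for the other targets. Gene by gene the lists did not differ in this way. By group mean CPM, 12 of the 19 other targets were highest in sgHS1-5 and 5 in sgHS2. Of the 17 enzymes, 12 were highest in sgHS1-5 and 1 in sgHS2. The share of all genes tested that were highest in each group was not counted. In these bulk libraries, fewer cells of a type and less RNA per cell cannot be told apart.

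By group means, 24 of the 38 members were highest in sgHS1-5, 7 in sgHS2, 1 in sgHBG, 3 in sgGal4 and 3 in WT. These counts have no share of all genes beside them, so they do not show a trait particular to the members. The 3 highest in WT were HK1, PFKM and VEGFA, and the 3 highest in sgGal4 were TPI1, LDHB and P4HA2. For TPI1 and LDHB the sgGal4 mean was raised by sgGal4 1, which lay log2 1.05 and 1.16 above sgGal4 2 and 3. The lowest sgGal4 library had 491 CPM of TPI1, against a mean of 661 CPM in sgHS1-5. For LDHB it had 595 CPM, against a mean of 781 CPM in WT. The highest group mean was a median of 2.29 times the lowest for glycolytic enzymes and 2.64 times for other hypoxia targets. PFKFB3, which makes an activator of phosphofructokinase, had the narrowest span (1.22-fold), followed by PFKL (1.37-fold) and LDHB (1.497-fold). Among members with at least 1 CPM in every group, the span was widest for SLC16A3, a lactate exporter (21.9-fold, and 4.82-fold without sgHS1-5 2 and 3), EGLN3 (9.94-fold), NDRG1 (7.65-fold, and 4.62-fold without sgHS1-5 2 and 3) and P4HA1 (6.55-fold).

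**Figure D1:**
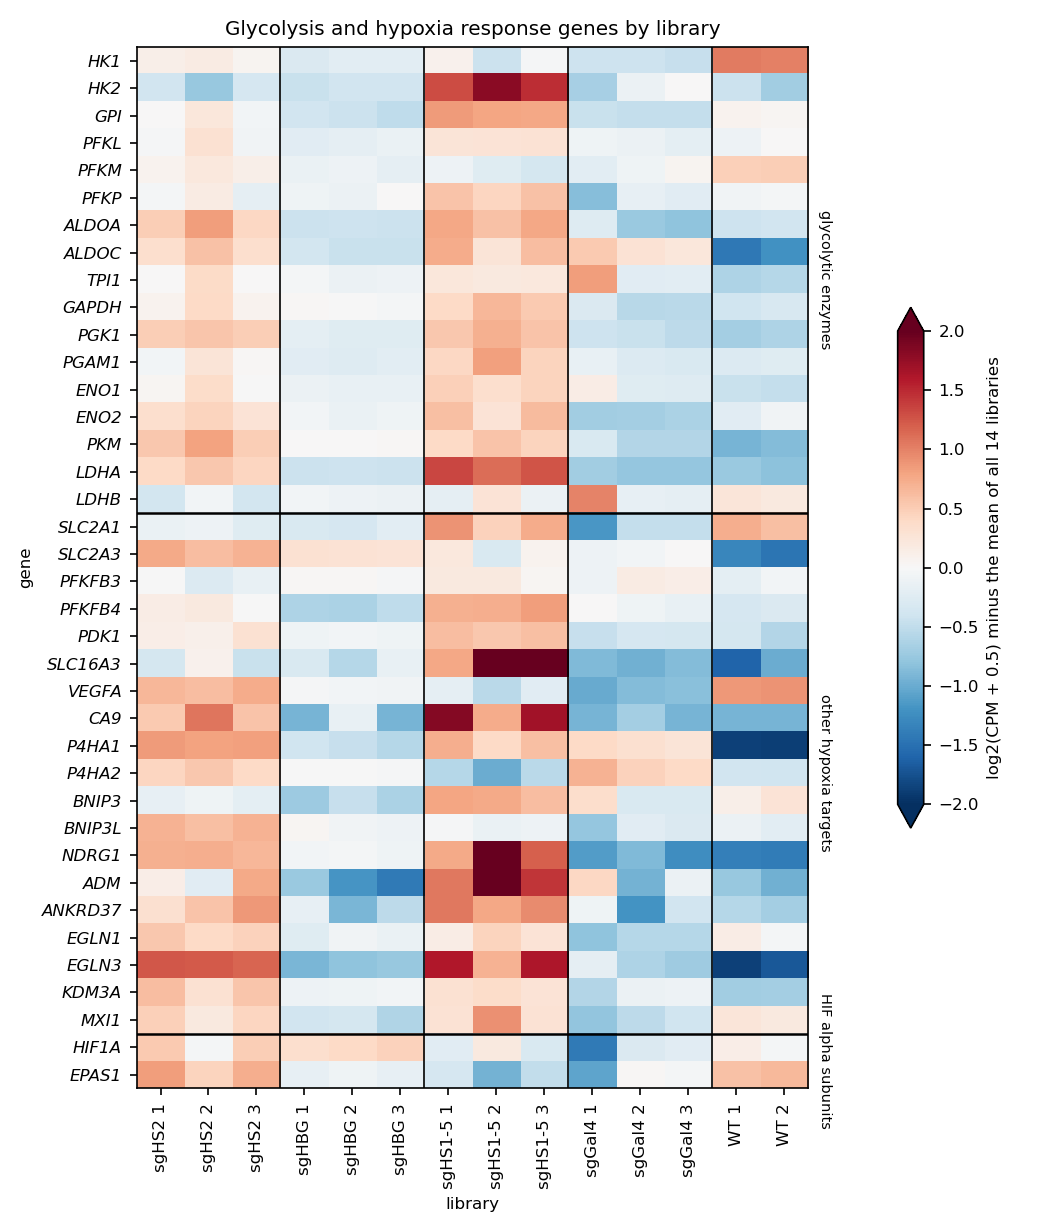
Level of each of the 38 members in each of the 14 libraries, as log2(CPM + 0.5) minus the gene's mean over the libraries, with colours clipped at −2 and 2 and rows grouped by role. The sgHS2 and sgHS1-5 columns are mostly above the mean, with median deviations of 0.33 to 0.38 and 0.45 to 0.55, and the sgHBG, sgGal4 and WT columns mostly below it.

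Cells with dCas9 at HS2 were compared with cells with the non-targeting sgRNA to ask what changes with dCas9 at that enhancer. A gene was called when its adjusted p was under 0.05 in edgeR's quasi-likelihood test, with Benjamini-Hochberg adjustment over the 14406 genes tested. Of the 38 members, 23 were higher in sgHS2 and 0 were lower, where 30.1% of all genes tested were called, 14.5% higher and 15.6% lower. Glycolytic enzymes contributed 8 of 17, other hypoxia targets 13 of 19 and the alpha subunits 2 of 2. Without sgGal4 1 and sgHS2 2, 24 were higher and 1 lower, where 42.1% of all genes were called.

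Among the enzymes, LDHA, which makes lactate from pyruvate, and ALDOA rose by the largest amounts. LDHA had 838, 919 and 854 CPM in the sgHS2 libraries, against 390.1, 368 and 369 CPM in sgGal4. It was 2.32-fold higher (log2 difference 1.21 ± 0.089, adjusted p = 1.4e-06, SE, edgeR), with every sgHS2 library above every sgGal4 library. ALDOA had 1852, 2357 and 1762 CPM in sgHS2, against 1104, 789 and 758 CPM in sgGal4. It was 2.25-fold higher (log2 difference 1.17 ± 0.15, adjusted p = 0.000109), and the lowest sgHS2 library lay above sgGal4 1, the highest of its group. PKM, pyruvate kinase, had 1074, 1297 and 1049 CPM in sgHS2 and 602, 494 and 496 CPM in sgGal4 (log2 difference 1.10 ± 0.11, adjusted p = 1.69e-05). ENO2, the enolase best known from neurons, had 88.4, 96.1 and 85.3 CPM in sgHS2 and 43.0, 43.4 and 45.1 CPM in sgGal4 (log2 difference 1.04 ± 0.11, adjusted p = 1.9e-05). PGK1, which makes the first ATP of the pathway and holds 3 matches in the stretch above, had 554, 581 and 556 CPM in sgHS2 and 296, 291 and 275 CPM in sgGal4 (log2 difference 0.97 ± 0.082, adjusted p = 4.21e-06). In these 3 genes the libraries within a group were close and the groups well apart. Smaller rises were called for GAPDH, HK1 and GPI (log2 0.65, 0.54 and 0.53). The other 9 enzymes were not called, with log2 differences from −0.58 for LDHB to 0.37 for PFKP.

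Of the other hypoxia targets, NDRG1, a stress-induced differentiation gene, had 31.8, 32.4 and 31.0 CPM in sgHS2 and 8.65, 10.3 and 7.89 CPM in sgGal4. It was 3.55-fold higher (log2 difference 1.83 ± 0.27, adjusted p = 0.000324). EGLN3, a prolyl hydroxylase that HIF itself induces, had 32.1, 31.6 and 30.5 CPM in sgHS2 and 11.6, 8.42 and 7.89 CPM in sgGal4 (log2 difference 1.77 ± 0.22, adjusted p = 9.38e-05). Both genes had sgHS2 libraries close to each other and far above every sgGal4 library. VEGFA had 443, 429 and 467 CPM in sgHS2 and 139, 153 and 156 CPM in sgGal4 (log2 difference 1.58 ± 0.10, adjusted p = 5.87e-07). ANKRD37, a small ankyrin protein and a common marker of HIF activity, had 5.07, 6.11 and 7.64 CPM in sgHS2 and 3.69, 1.45 and 2.94 CPM in sgGal4 (log2 difference 1.24 ± 0.31, adjusted p = 0.00888). The ANKRD37 groups were separate but low, with sgGal4 1 nearest to sgHS2. EGLN1, the main oxygen sensor of the family, BNIP3L, MXI1, a MYC antagonist, and KDM3A, a histone demethylase, were called higher as well (log2 1.12, 1.08, 0.95 and 0.75). So were the glucose transporters SLC2A3 and SLC2A1 (log2 0.74 and 0.52), PDK1, which keeps pyruvate from mitochondria (0.57), and P4HA1, a collagen prolyl hydroxylase (0.51). CA9, a carbonic anhydrase that exports acid, had 34 reads over the 3 sgHS2 libraries and 1 read over the 3 sgGal4 libraries, a ratio of 30.4 with a 95% counting interval of 5.10 to 1236. The exporter SLC16A3, PFKFB3, PFKFB4, P4HA2, BNIP3 and ADM were not called.

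The alpha subunits were both higher in sgHS2. HIF1A had 55.1, 37.3 and 54.1 CPM in sgHS2, against 14.04, 31.4 and 32.8 CPM in sgGal4 (log2 difference 0.89 ± 0.26, adjusted p = 0.0195). EPAS1, the alpha subunit of HIF-2, had 126, 94.9 and 116 CPM in sgHS2, against 33.3, 70.9 and 67.7 CPM in sgGal4 (log2 difference 0.96 ± 0.23, adjusted p = 0.00787). For both genes sgGal4 1 was at under 50% of sgGal4 2 and 3, and without it the log2 differences were 0.61 for HIF1A (adjusted p = 0.0118) and 0.70 for EPAS1 (adjusted p = 0.00202). The HIF1A call was lost without sgHS2 1 (adjusted p = 0.0727) or sgHS2 3 (0.0699), and that of SLC2A1 without sgHS2 1, 2 or 3 (adjusted p = 0.083, 0.074 and 0.0563). TPI1, triosephosphate isomerase, had 576, 748 and 578 CPM in sgHS2 and 1017, 491 and 495 CPM in sgGal4, and its difference of −0.07 turned to 0.36 without sgGal4 1 (adjusted p = 0.0103).

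**Figure D2:**
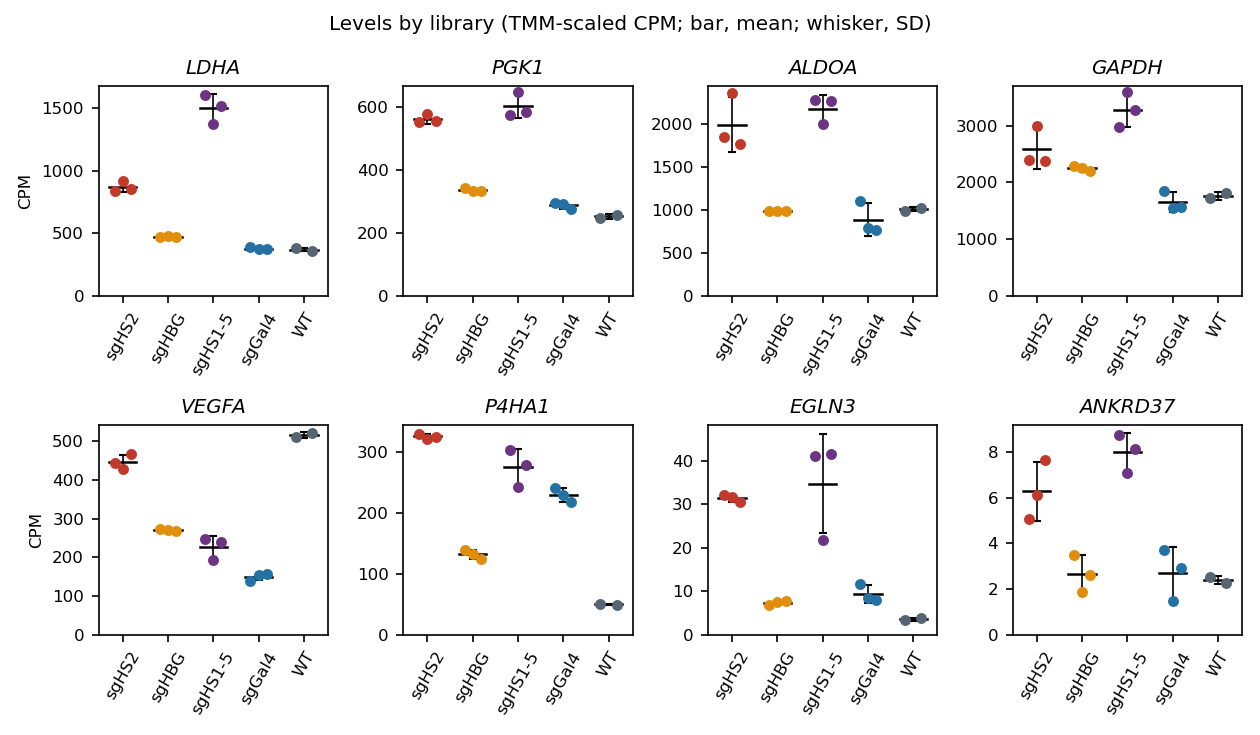
CPM of LDHA, PGK1, ALDOA, GAPDH, VEGFA, P4HA1, EGLN3 and ANKRD37 in each library (points) with the group mean and SD (bars), groups in the order sgHS2, sgHBG, sgHS1-5, sgGal4 and WT. LDHA lay at 838 to 919 CPM in sgHS2 and 1375 to 1605 CPM in sgHS1-5, above all other groups, whereas VEGFA was highest in WT (510.4 and 521 CPM).

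In cells with dCas9 at the HBG genes the members went both ways. Of 38, 10 were higher and 5 lower than in sgGal4, where 24.7% of all genes were called, 12.1% higher and 12.6% lower. Glycolytic enzymes had 4 higher and 1 lower of 17, other hypoxia targets 5 higher and 4 lower of 19, and 1 of the 2 alpha subunits was higher. Without sgHBG 3, 5 were higher and 4 lower, where 14.4% of all genes were called. Without sgGal4 1 and sgHS2 2, 14 were higher and 5 lower, where 37.4% of all genes were called.

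NDRG1 had 18.6, 18.7 and 18.2 CPM in sgHBG, against 8.65, 10.3 and 7.89 CPM in sgGal4, and was 2.07-fold higher (log2 difference 1.05 ± 0.27, adjusted p = 0.0153). VEGFA had 274, 270.2 and 267 CPM in sgHBG, against 139, 153 and 156 CPM in sgGal4 (log2 difference 0.85 ± 0.10, adjusted p = 0.000112). ENO2 had 67.6, 64.2 and 66.3 CPM in sgHBG, against 43.0, 43.4 and 45.1 CPM in sgGal4 (log2 difference 0.59 ± 0.11, adjusted p = 0.00191). All 3 sgHBG libraries of each gene lay within a few percent of each other and above every sgGal4 library. HIF1A had 48.6, 50.8 and 52.9 CPM in sgHBG, against 14.04, 31.4 and 32.8 CPM in sgGal4 (log2 difference 0.95 ± 0.26, adjusted p = 0.0184; 0.66, adjusted p = 0.0103, without sgGal4 1). EPAS1 had 62.2, 66.1 and 62.3 CPM in sgHBG and its difference of 0.14 ± 0.23 was not called (adjusted p = 0.679), its sgHBG values lying between sgGal4 1 and sgGal4 2 and 3. GAPDH, PKM, LDHA, EGLN1, PDK1 and BNIP3L were also higher, by log2 0.45, 0.50, 0.33, 0.50, 0.31 and 0.37.

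The members lower in sgHBG included enzymes that modify collagen. P4HA1 had 138, 133 and 124 CPM in sgHBG, against 241, 229.6 and 219 CPM in sgGal4, and was 1.74-fold lower (log2 difference −0.80 ± 0.095, adjusted p = 9.82e-05). Its partner P4HA2 was lower too (84.7, 84.9 and 84.0 CPM in sgHBG, against 138, 118 and 113 CPM in sgGal4, log2 difference −0.54, adjusted p = 0.00724). ALDOC, an aldolase of brain, had 87.3, 83.1 and 82.6 CPM in sgHBG, against 162, 139 and 132 CPM in sgGal4 (log2 difference −0.77 ± 0.13, adjusted p = 0.00153). For these 3 genes every sgHBG library was below every sgGal4 library. PFKFB4 had 23.7, 23.6 and 25.8 CPM in sgHBG, against 37.2, 34.7 and 33.2 CPM in sgGal4 (log2 difference −0.52 ± 0.095, adjusted p = 0.00205). The mitophagy receptors BNIP3 and BNIP3L parted, with BNIP3 at 22.5, 27.3 and 24.1 CPM in sgHBG and 47.9, 30.3 and 30.5 CPM in sgGal4 (log2 difference −0.55 ± 0.16, adjusted p = 0.0262) and BNIP3L at 143, 132 and 129.6 CPM in sgHBG and 80.4, 119 and 114 CPM in sgGal4 (log2 difference 0.37 ± 0.13, adjusted p = 0.0488). In both genes sgGal4 1 was the sgGal4 library farthest from sgHBG, and without it the differences were −0.30 for BNIP3 (adjusted p = 0.0351) and 0.22 for BNIP3L (adjusted p = 0.0429). The calls of GAPDH, LDHA, PDK1 and BNIP3L were lost without any 1 of the sgHBG libraries, that of BNIP3 without sgHBG 1 or 3 (adjusted p = 0.0917 and 0.0847) and that of HIF1A without sgHBG 2 or 3 (0.0527 and 0.0587). ADM, not called with all libraries, was lower without sgGal4 2 (−2.86, adjusted p = 0.0391).

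The sgHS1-5 cells had the most members above sgGal4. Of 38, 28 were higher and 1 lower, where 40.4% of all genes were called, 20.3% higher and 20.2% lower. Glycolytic enzymes had 13 of 17 higher and 0 lower, and other hypoxia targets 15 of 19 higher and 1 lower. Neither alpha subunit was called. Leaving out sgHS1-5 2 and 3, the libraries with the most myeloid and B cell transcripts, leaves 1 sgHS1-5 library. That fit has no spread within sgHS1-5, so its log2 differences are given without counts or p values.

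LDHA had 1605, 1375 and 1513 CPM in sgHS1-5, against 390.1, 368 and 369 CPM in sgGal4, and was 3.99-fold higher (log2 difference 2.00 ± 0.091, adjusted p = 4.34e-08). Without sgHS1-5 2 and 3 the LDHA difference was 2.097. HK2, the inducible hexokinase, had 103, 146 and 117.1 CPM in sgHS1-5, against 26.0, 38.2 and 41.8 CPM in sgGal4 (log2 difference 1.78 ± 0.18, adjusted p = 1.85e-05; 1.54 without sgHS1-5 2 and 3). GPI, the isomerase after hexokinase, had 476, 454 and 448 CPM in sgHS1-5 and 193, 189 and 188 CPM in sgGal4 (log2 difference 1.28 ± 0.09, adjusted p = 1.23e-06). Every sgHS1-5 library of these 3 genes was well above the highest sgGal4 library. ALDOA was 2.46-fold higher. ENO2, PGK1, GAPDH and PKM were higher by log2 1.19, 1.07, 0.99 and 0.96, and PFKP, PGAM1, ENO1, PFKL and HK1 by 0.91, 0.81, 0.52, 0.40 and 0.32. HK1 was called although its groups overlapped, with 410.4, 287 and 381 CPM in sgHS1-5 and 291, 291 and 281 CPM in sgGal4. PFKM, ALDOC, TPI1 and LDHB were not called.

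EGLN3 had 41.1, 21.7 and 41.6 CPM in sgHS1-5, against 11.6, 8.42 and 7.89 CPM in sgGal4 (log2 difference 1.91 ± 0.22, adjusted p = 4.69e-05; 2.16 without sgHS1-5 2 and 3), and library 2, with the most myeloid RNA, was the lowest of the 3. NDRG1 had 32.9, 85.3 and 45.0 CPM in sgHS1-5, against 8.65, 10.3 and 7.89 CPM in sgGal4 (log2 difference 2.61 ± 0.28, adjusted p = 2.18e-05). SLC16A3 had 10.5, 102 and 31.1 CPM in sgHS1-5, against 2.98, 2.81 and 3.03 CPM in sgGal4 (log2 difference 4.03 ± 0.64, adjusted p = 0.000446). Both of these genes were highest in sgHS1-5 2, next in sgHS1-5 3 and lowest in sgHS1-5 1, the order of the myeloid markers. Without sgHS1-5 2 and 3 the differences were 1.88 for NDRG1 and 1.84 for SLC16A3. ADM, the vasodilator adrenomedullin, had 2.27, 7.37 and 3.11 CPM in sgHS1-5, against 1.28, 0.194 and 0.734 CPM in sgGal4 (log2 difference 2.60 ± 0.67, adjusted p = 0.00805). Its call did not hold without sgHS1-5 2 and 3 (log2 1.72). The part of myeloid or B cell RNA in the remaining differences was not tested. CA9 had 45 reads over the 3 sgHS1-5 libraries and 1 read over the 3 sgGal4 libraries, a ratio of 60.9 with a 95% counting interval of 10.4 to 2457.

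The other called targets were SLC2A1 (log2 1.39), ANKRD37 (1.59), MXI1 (1.11), PDK1 (0.98), EGLN1 (0.95), PFKFB4 (0.84), BNIP3 (0.79), VEGFA (0.60) and KDM3A (0.57). The collagen hydroxylases parted. P4HA1 had 303, 243 and 279 CPM in sgHS1-5, against 241, 229.6 and 219 CPM in sgGal4 (log2 difference 0.26 ± 0.094, adjusted p = 0.0424), while P4HA2 had 57.3, 42.5 and 58.8 CPM in sgHS1-5, against 138, 118 and 113 CPM in sgGal4 (log2 difference −1.22 ± 0.13, adjusted p = 1.8e-05). P4HA2 was far below every sgGal4 library in all 3 sgHS1-5 libraries, and the P4HA1 groups nearly touched. HIF1A had 32.7, 44.0 and 31.1 CPM in sgHS1-5 and was not called (log2 difference 0.45 ± 0.26, adjusted p = 0.187), and EPAS1 had 55.4, 36.2 and 49.7 CPM and was not called (log2 difference −0.29 ± 0.24, adjusted p = 0.345). Without sgGal4 1, EPAS1 was lower in sgHS1-5 (−0.56, adjusted p = 0.00793). The calls of ENO1, PFKL and KDM3A did not hold without sgHS1-5 2 and 3, and those of HK1 and P4HA1 were lost without sgHS1-5 1, sgHS1-5 3, sgGal4 2 or sgGal4 3.

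**Figure D3:**
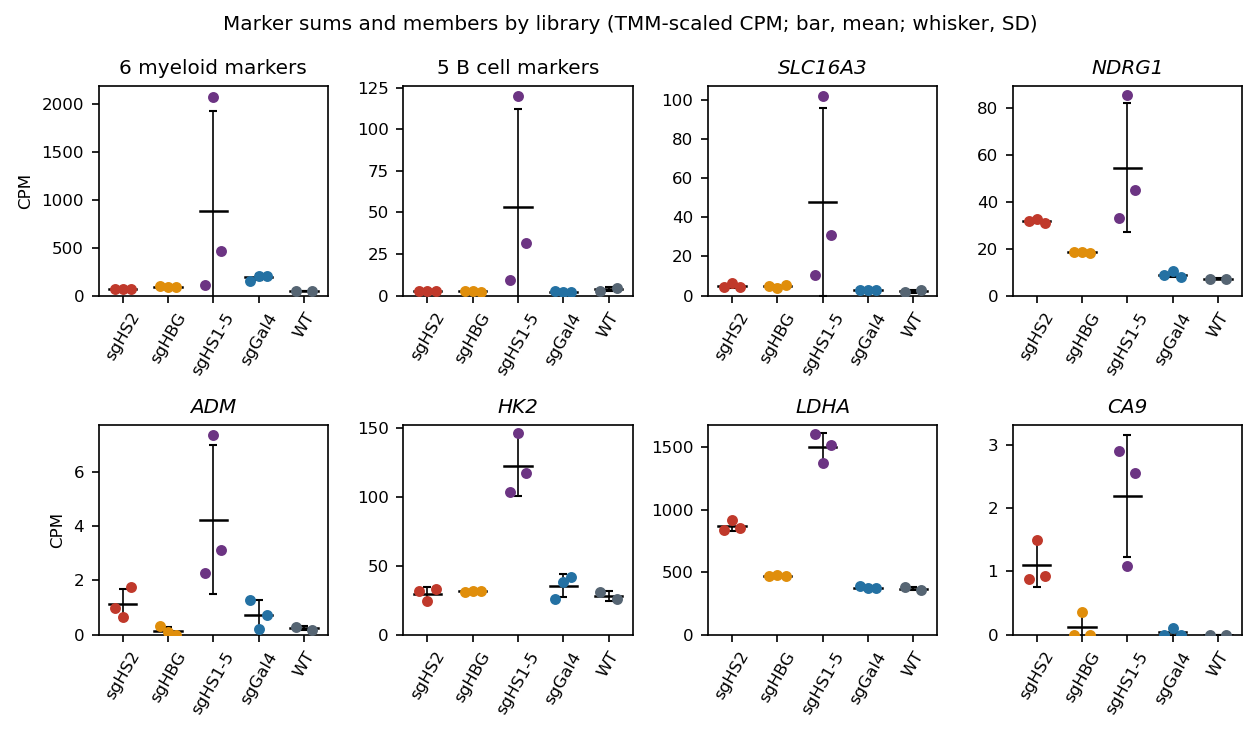
Summed CPM of 6 myeloid and 5 B cell markers and CPM of SLC16A3, NDRG1, ADM, HK2, LDHA and CA9 in each library (points), with group means and SDs. The myeloid sum reaches 2081 CPM in sgHS1-5 2 and 465 CPM in sgHS1-5 3; SLC16A3, NDRG1, ADM and HK2 are highest in sgHS1-5 2 and next in sgHS1-5 3, while LDHA is highest in sgHS1-5 1 (1605 CPM).

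The sgGal4 cells were set against WT cells to ask what dCas9, BirA and a non-targeting sgRNA go with in the absence of a target. Of the 38 members, 8 were higher and 9 lower in sgGal4, where 42.4% of all genes were called, 22.7% higher and 19.6% lower, a share close to that of the members (44.7%). Glycolytic enzymes had 3 higher and 4 lower of 17, other hypoxia targets 5 higher and 4 lower of 19. Without sgGal4 1 and sgHS2 2, 12 were higher and 13 lower, where 57.3% of all genes were called.

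P4HA1 had 241, 229.6 and 219 CPM in sgGal4, against 50.2 and 49.4 CPM in WT, and was 4.61-fold higher (log2 difference 2.21 ± 0.12, adjusted p = 3.26e-08). VEGFA had 139, 153 and 156 CPM in sgGal4, against 510.4 and 521 CPM in WT, and was 3.45-fold lower (log2 difference −1.79 ± 0.11, adjusted p = 1.48e-07). These opposite differences were both far larger than the spread within either group. ALDOC had 162, 139 and 132 CPM in sgGal4, against 41.8 and 48.6 CPM in WT (log2 difference 1.67 ± 0.16, adjusted p = 4.72e-06). HK1, the housekeeping hexokinase, had 291, 291 and 281 CPM in sgGal4, against 797 and 776 CPM in WT (log2 difference −1.45 ± 0.13, adjusted p = 2.48e-06). Both WT libraries of HK1 were above every library of the 4 dCas9 groups. The prolyl hydroxylases parted, with EGLN3 at 11.6, 8.42 and 7.89 CPM in sgGal4 and 3.27 and 3.73 CPM in WT (log2 difference 1.39 ± 0.29, adjusted p = 0.00182) and EGLN1 at 25.7, 30.3 and 30.4 CPM in sgGal4 and 50.2 and 44.2 CPM in WT (log2 difference −0.71 ± 0.12, adjusted p = 0.000509). The glucose transporters parted as well, with SLC2A1 at 29.6, 48.2 and 48.2 CPM in sgGal4 and 111 and 102 CPM in WT (log2 difference −1.34 ± 0.18, adjusted p = 7.77e-05) and SLC2A3 at 294, 303 and 317 CPM in sgGal4 and 127 and 115 CPM in WT (log2 difference 1.33 ± 0.14, adjusted p = 9.33e-06). SLC2A3 is the transporter with the higher affinity for glucose, and it was above WT in all 12 dCas9 libraries.

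HIF1A was not called between sgGal4 and WT (14.04, 31.4 and 32.8 CPM in sgGal4, 42.3 and 37.2 CPM in WT, log2 difference −0.59 ± 0.28, adjusted p = 0.111). EPAS1 was lower in sgGal4 (33.3, 70.9 and 67.7 CPM, against 106 and 110.4 CPM in WT, log2 difference −0.91 ± 0.26, adjusted p = 0.0123). Without sgGal4 1 the EPAS1 difference was −0.64 (adjusted p = 0.00377), and it was not called without WT 1 or WT 2 (adjusted p = 0.0547 and 0.0707). TPI1, PKM, P4HA2 and KDM3A were also higher in sgGal4, by log2 0.82, 0.42, 0.93 and 0.44. GPI, PFKM, ENO2 and MXI1 were also lower, by log2 −0.53, −0.56, −0.53 and −0.79. The calls of TPI1, PKM and KDM3A did not hold without WT 1 or without WT 2. The size of the TPI1 difference depends on sgGal4 1, which had 1017 CPM, and fell to 0.38 without it. The lowest sgGal4 library, at 491 CPM, was still above WT (371 and 386 CPM).

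The 3 targeting groups share the sgGal4 libraries, so their differences from sgGal4 are given side by side and not as separate evidence. GAPDH, ENO2, PKM, LDHA, PDK1, VEGFA, NDRG1 and EGLN1 were called higher in all 3 of them. For LDHA the log2 differences were 1.21 in sgHS2, 0.33 in sgHBG and 2.00 in sgHS1-5, and for VEGFA 1.58, 0.85 and 0.60 in the same order. PFKM, TPI1, LDHB and PFKFB3 were called in none of the 3. PFKFB4, P4HA1 and BNIP3 were called higher in at least 1 of them and lower in sgHBG. Among the 3 comparisons with sgGal4, the role lists differed in size of change mainly in sgHS2. There the median log2 difference was 0.37 for glycolytic enzymes and 0.75 for other hypoxia targets, with 47.1% and 68.4% called. In sgHBG the medians were 0.03 and 0.17 with 29.4% and 47.4% called, and in sgHS1-5 0.91 and 0.95 with 76.5% and 84.2% called. For sgGal4 against WT they were 0.02 and 0.24 with 41.2% and 47.4% called. The median over all genes tested was −0.02, 0.00, 0.02 and 0.03 in these 4 comparisons. No test of the lists against each other was made.

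**Figure D4:**
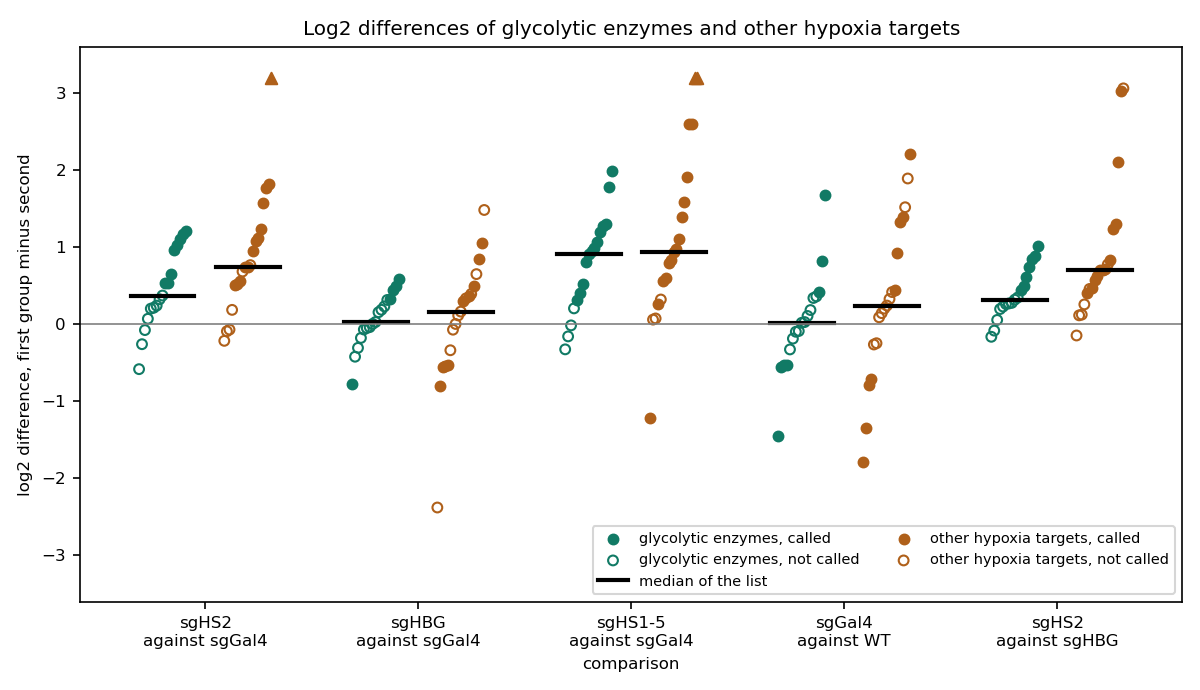
Log2 difference of each glycolytic enzyme and each other hypoxia target (points) in 5 comparisons, with filled points for called members and a line at each list's median; values above 3.2 are drawn as triangles at the edge. In sgHS2 against sgGal4 the medians are 0.37 for enzymes and 0.75 for other targets, and in sgHS1-5 against sgGal4 0.91 and 0.95.

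Between targeting groups, sgHS2 differed from sgHBG in few genes, yet 20 of 38 members were higher and 0 lower, where 8.91% of all genes were called, 3.76% higher and 5.15% lower. Called members were 7 of 17 glycolytic enzymes (median log2 0.32), 12 of 19 other hypoxia targets (0.71) and EPAS1, whose call (adjusted p = 0.0452) was lost on leaving out any 1 of the 6 libraries (adjusted p = 0.0628 to 0.154). EGLN3 had 32.1, 31.6 and 30.5 CPM in sgHS2, against 6.80, 7.40 and 7.67 CPM in sgHBG (log2 difference 2.103 ± 0.22, adjusted p = 0.000135). P4HA1 had 331, 322 and 326 CPM in sgHS2, against 138, 133 and 124 CPM in sgHBG (log2 difference 1.31 ± 0.096, adjusted p = 1.19e-05). Neither gene had groups that came near each other. LDHA, ALDOA and PGK1 were higher by log2 0.88, 1.01 and 0.74, and CA9 had 34 reads in sgHS2 and 4 reads in sgHBG. NDRG1, PDK1, HIF1A and GAPDH were among the 18 not called. Without sgHBG 3, 12 members were higher and 0 lower, where 3.82% of all genes were called. With sgGal4 1, sgHS2 2, sgHS1-5 2 and sgHS1-5 3 omitted, 31 members were higher and 1 lower, where 43.7% of all genes were called.

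In sgHS1-5 against sgHBG, 27 members were higher and 1 lower, where 25.2% of all genes were called, 12.4% higher and 12.8% lower. No count is given without sgHS1-5 2 and 3, since 1 sgHS1-5 library is left. LDHA was higher by log2 1.67 ± 0.09, HK2 by 1.96 ± 0.19 and EGLN3 by 2.25 ± 0.23. P4HA1 was higher (1.06 ± 0.095) and P4HA2 lower (−0.68 ± 0.12). In sgHS1-5 against sgHS2, 14 members were higher and 6 lower, where 38.9% of all genes were called, 20.4% higher and 18.5% lower. HK2 had 103, 146 and 117.1 CPM in sgHS1-5, against 31.9, 24.2 and 32.8 CPM in sgHS2 (log2 difference 2.04 ± 0.19, adjusted p = 6.63e-06). VEGFA had 248, 192 and 239 CPM in sgHS1-5, against 443, 429 and 467 CPM in sgHS2 (log2 difference −0.98 ± 0.10, adjusted p = 1.99e-05). EPAS1 had 55.4, 36.2 and 49.7 CPM in sgHS1-5, against 126, 94.9 and 116 CPM in sgHS2 (log2 difference −1.25 ± 0.24, adjusted p = 0.00133). HK2 was thus higher and the other 2 genes lower in sgHS1-5, without overlap. LDHA, SLC2A1 and BNIP3 were higher in sgHS1-5 (log2 0.78, 0.87 and 0.88), while SLC2A3, BNIP3L and P4HA2 were lower (−0.68, −0.76 and −1.15). Without sgHS1-5 2 and 3, which leaves 1 sgHS1-5 library, fewer members were called. NDRG1 then differed by 0.05 and EPAS1 by −1.02.

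Set against WT, 21 members were higher and 3 lower in sgHS2 (33.1% of all genes called, 17.6% higher and 15.5% lower), and 13 were higher and 2 lower when WT 1 was left out (18.6% of all genes called). In sgHBG 11 were higher and 8 lower (33.6% of all genes called, 17.7% higher and 15.9% lower). In sgHS1-5 26 were higher and 4 lower (42.9% of all genes called, 23.4% higher and 19.5% lower). HK1 and PFKM were lower than in WT in all 3 targeting groups, which share the WT libraries, with log2 differences for HK1 of −0.91 in sgHS2, −1.26 in sgHBG and −1.13 in sgHS1-5. LDHA was higher in all 3 (1.24, 0.36 and 2.02), as were P4HA1 (2.71, 1.40 and 2.47) and EGLN3 (3.16, 1.06 and 3.31). In sgHBG the calls of LDHA (adjusted p = 0.0624 and 0.131) and EGLN3 (adjusted p = 0.0999 and 0.0593) were lost without WT 1 and without WT 2. The PFKM call in sgHS2 was lost without WT 1, WT 2, sgHS2 1 or sgHS2 3 (adjusted p = 0.066 to 0.134). VEGFA did not follow LDHA, P4HA1 and EGLN3. It was lower than in WT in sgHBG (−0.93, adjusted p = 4.47e-05) and sgHS1-5 (−1.19, adjusted p = 4.37e-06) and was not called in sgHS2 (−0.21, adjusted p = 0.178). The VEGFA differences from sgGal4 therefore stand beside a level in sgGal4 that was itself 3.45-fold lower than in WT. CA9 had 0 reads in WT and was at least 7.66-fold higher in sgHS2 and at least 15.3-fold higher in sgHS1-5, against 3 counts over the WT group.

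Several pairs of isozymes and paralogs were called in opposite directions in at least 1 comparison, and their ratios were read from the deposited RPKM values. LDHA and LDHB were not such a pair and are given beside them. SLC2A3 over SLC2A1 was 8.57 ± 0.511 in sgHS2, 7.18 ± 0.323 in sgHBG, 3.12 ± 0.136 in sgHS1-5, 7.85 ± 1.58 in sgGal4 (SD, n = 3 each) and 1.26 ± 0.0303 in WT (n = 2). WT cells thus had nearly equal levels of both transporters per kilobase, and all dCas9 groups leaned to SLC2A3. In tests, SLC2A1 was lower and SLC2A3 higher than in WT in sgHS2 (log2 −0.82 and 2.08), sgHBG (−0.95 and 1.67) and sgGal4. HK1 over HK2 was 24.4 ± 4.46 in sgHS2, 17.8 ± 0.715 in sgHBG, 4.97 ± 1.65 in sgHS1-5, 14.6 ± 4.04 in sgGal4 and 46.7 ± 0.975 in WT. HK1 was lower and HK2 higher in sgHS1-5 than in WT (log2 −1.13 ± 0.13 and 2.13 ± 0.22). HK1, the constitutive form, stayed the higher of the pair in every library.

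LDHA over LDHB was 0.968 ± 0.0788 in sgHS2, 0.468 ± 0.0058 in sgHBG, 1.52 ± 0.345 in sgHS1-5, 0.318 ± 0.116 in sgGal4 and 0.292 ± 0.0042 in WT. LDHB, the form that favours pyruvate, was the higher of the pair in every sgHBG, sgGal4 and WT library and LDHA in every sgHS1-5 library. LDHB was called in no comparison with all libraries in the fit, and its highest value by far was in sgGal4 1 (1334, 600.0 and 595 CPM in sgGal4). P4HA1 over P4HA2 was 2.44 ± 0.249 in sgHS2, 1.43 ± 0.0373 in sgHBG, 4.94 ± 0.406 in sgHS1-5, 1.65 ± 0.216 in sgGal4 and 0.751 ± 0.0072 in WT. EGLN3 over EGLN1 was 1.14 ± 0.0629 in sgHS2, 0.399 ± 0.0190 in sgHBG, 1.37 ± 0.418 in sgHS1-5, 0.787 ± 0.264 in sgGal4 and 0.159 ± 0.0099 in WT. EGLN3, the inducible form, was above EGLN1 in all sgHS2 libraries and below it in all sgHBG and WT libraries. BNIP3 over BNIP3L was 0.368 ± 0.0465 in sgHS2, 0.429 ± 0.0293 in sgHBG, 1.05 ± 0.0598 in sgHS1-5, 0.859 ± 0.450 in sgGal4 and 0.771 ± 0.0570 in WT. In sgGal4 1, 2 and 3 this ratio was 1.38, 0.579 and 0.621. In the same libraries EGLN3 over EGLN1 was 1.09, 0.605 and 0.666, and LDHA over LDHB 0.184, 0.381 and 0.388. These sgGal4 means therefore depend on sgGal4 1. In sgHS1-5 against sgHS2 BNIP3 was higher (0.88 ± 0.16) and BNIP3L lower (−0.76 ± 0.13). Of the phosphofructokinases, PFKP was higher and PFKM lower in sgHS1-5 than in sgHS2 (0.54 ± 0.15 and −0.36 ± 0.10) and than in WT (0.59 ± 0.18 and −0.71 ± 0.11), and neither was called against sgHS2 without sgHS1-5 2 and 3. GAPDH, PGAM1, TPI1, ENO1, PKM and LDHB have near-identical processed copies in the genome, so their counts depend on how the authors assigned shared reads.

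**Figure D5:**
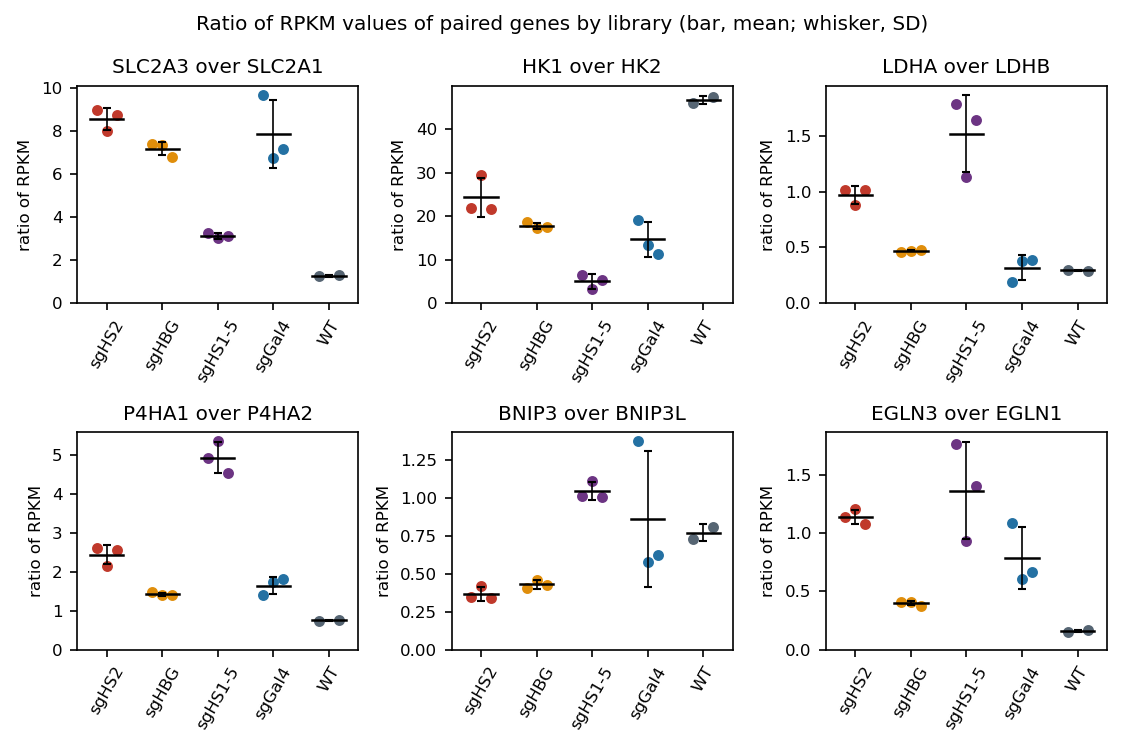
Ratio of deposited RPKM values of SLC2A3 over SLC2A1, HK1 over HK2, LDHA over LDHB, P4HA1 over P4HA2, BNIP3 over BNIP3L and EGLN3 over EGLN1 in each library (points), with group means and SDs. SLC2A3 over SLC2A1 is near 1 in WT alone, and LDHA over LDHB is above 1 in all sgHS1-5 libraries.

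Other genes of the same pathways were read from lists of neighbours of the members. Of 35 tested further hypoxia targets, 12 were higher and 3 lower in sgHS2, 4 higher and 9 lower in sgHBG, and 10 higher and 5 lower in sgHS1-5 than in sgGal4, and 16 were higher and 5 lower in sgGal4 than in WT. Of all genes tested, 14.5% were higher and 15.6% lower in sgHS2, 12.1% and 12.6% in sgHBG, 20.3% and 20.2% in sgHS1-5, and 22.7% and 19.6% in sgGal4 against WT, and the counts are a description beside these shares. CA12, a carbonic anhydrase like CA9, had 7.26, 6.22 and 6.91 CPM in sgHS2, against 0.851, 1.45 and 1.47 CPM in sgGal4 (log2 difference 2.39 ± 0.23, adjusted p = 9.44e-06). PPFIA4 had 17.7, 15.2 and 16.2 CPM in sgHS1-5, against 1.99, 2.32 and 3.67 CPM in sgGal4 (log2 difference 2.59 ± 0.31, adjusted p = 5.12e-05). In both genes the groups were far apart. DDIT4, an inhibitor of mTOR signalling, was lower in sgHS1-5 (193, 187 and 194 CPM) than in sgGal4 (582, 432 and 417 CPM, log2 difference −1.32 ± 0.13, adjusted p = 9.84e-06). Of 10 tested HIF partners and hydroxylation genes, 0 were called in sgHS2 or sgHBG and 1, CITED2, was higher in sgHS1-5. VHL, which marks hydroxylated HIF for degradation, had 151, 138 and 139 CPM in sgGal4, against 443 and 421 CPM in WT (log2 difference −1.60 ± 0.085, adjusted p = 3.67e-08). Every dCas9 library had VHL at 131 to 154 CPM, below both WT libraries.

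Of 11 genes of pyruvate entry into mitochondria and lactate export, 0 were higher and 5 lower in sgHS2, 0 and 4 in sgHBG and 1 and 5 in sgHS1-5 against sgGal4, comparisons that share the sgGal4 libraries. In sgGal4 against WT, 4 were higher and 1 lower. Over all genes, 30.1%, 24.7%, 40.4% and 42.4% were called in these 4 comparisons. MPC1, a subunit of the mitochondrial pyruvate carrier, had 32.8, 38.2 and 34.5 CPM in sgHS2, 39.1, 41.8 and 34.3 CPM in sgHBG and 29.3, 32.2 and 30.1 CPM in sgHS1-5, against 81.3, 56.4 and 60.5 CPM in sgGal4. Its log2 differences were −0.91 ± 0.14, −0.78 ± 0.13 and −1.11 ± 0.14, and every targeting library was below every sgGal4 library, with sgGal4 1 highest. BSG, the chaperone of lactate transporters, had 586, 744 and 542 CPM in sgHS2, 506, 481 and 505 CPM in sgHBG and 592, 509 and 569.7 CPM in sgHS1-5, against 1041, 874 and 827 CPM in sgGal4 (log2 −0.55, −0.88 and −0.72). PDK4, which blocks pyruvate dehydrogenase, had 16.3, 21.8 and 21.5 CPM in sgGal4, against 1.15 and 1.002 CPM in WT (log2 difference 4.19 ± 0.22, adjusted p = 3.11e-08). Of 7 pentose phosphate genes, 1 was higher and 1 lower in sgHS2, 1 and 0 in sgHBG, and 2 and 1 in sgHS1-5 against sgGal4, and 1 was higher and 2 lower in sgGal4 against WT, beside the same shares of all genes.

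Of 10 tested other glycolysis genes, 1 was higher and 0 lower in sgHS2, 3 and 0 in sgHBG, and 6 and 1 in sgHS1-5 against sgGal4, and 1 was higher and 3 lower in sgGal4 against WT, where 30.1%, 24.7%, 40.4% and 42.4% of all genes were called. PKLR, the red cell and liver pyruvate kinase, had 46.3, 26.4 and 37.9 CPM in sgHS1-5, against 10.4, 9.39 and 7.71 CPM in sgGal4 and 38.6 and 34.3 CPM in WT (sgHS1-5 against sgGal4 log2 difference 2.01 ± 0.19, adjusted p = 1.05e-05; sgGal4 against WT −1.999 ± 0.21). The sgHS1-5 and WT libraries were high and the sgGal4 libraries low. PGM1, phosphoglucomutase, had 0.648, 8.47 and 4.33 CPM in sgHS1-5 and 0, 0 and 0.0917 CPM in sgGal4, and HK3, a hexokinase of myeloid cells, had 0, 2.59 and 1.35 CPM in sgHS1-5 and 0.142, 0 and 0 CPM in sgGal4. Both followed the myeloid markers across the sgHS1-5 libraries, and the part of myeloid RNA in the other differences of this list was not tested.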

How the data were processed

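The deposited values were a table of raw read counts per gene, whole numbers as the authors deposited them, for 24729 genes and 14 libraries, and a table of RPKM values, which the authors had divided by transcript length and by library depth, for 25268 genes. TopHat, Cufflinks and DESeq and the human build hg19 are named in the submitters' processing notes. Versions, annotation and the counting tool are not given in the sources used here. Libraries were made from total RNA with the TruSeq RNA v2 kit, per the labels' protocols, a kit that selects poly(A) RNA and does not mark strand, so reads of a gene and of an overlapping antisense gene cannot be told apart.

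The counts went into edgeR 4.0.16 (R 4.3.3). Low genes were removed by filterByExpr, set to a minimum count of 10 and a total of 15, and libraries were scaled by TMM. A single fit took all 14 libraries and estimated 1 mean for each group, with a common dispersion of 0.0323 and 9 degrees of freedom left. Pairs of groups were tested by quasi-likelihood F tests, with Benjamini-Hochberg adjustment over the 14406 genes tested. Log2 differences come from the fit and carry its standard error (SE). A fold against 0 counts is a lower bound from 3 counts over the group, and ratios against 1 read carry an exact 95% binomial interval. Both cover counting error only. The procedure was tested on simulated data. Promoter windows were RefSeq's, of GRCh38.p14, while no coordinates of hg19 were used.

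The members and the pathway and marker lists were chosen with earlier results of these data known. Named in full are the 6 called members with the largest log2 difference in each comparison with sgGal4 and in sgGal4 against WT, with a mean of at least 1 CPM, HIF1A and EPAS1, and pairs of paralogs called in opposite directions. CA9, the pair of LDHA and LDHB, and members with smaller changes are named for their role. Of other lists, genes are taken from the 4 with the lowest p in a comparison. Alternatives were RLE size factors, no filter, a filter of 1 CPM in 3 libraries, DESeq2 1.42.0, limma voom (limma 3.58.1), only the 2 groups compared, a replicate block, limma-trend on log2(RPKM + 1) or log2(RPKM + 0.1) with a filter of 0.5 RPKM in 2 libraries or none, and leaving out single libraries or those that stand apart. The omissions for the other pathway lists and for the span of group means were added after seeing the data.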

Additional observations from a re-analysis of the deposited data

How the results depend on the processing

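Counts of called members stayed within 1.5 times those of the fit of all libraries under RLE size factors, other filters, DESeq2, limma voom and limma-trend. With sgGal4 1, sgHS2 2 and sgHS1-5 2 and 3 omitted, 26 members were called in sgHBG against sgGal4, 30 in sgGal4 against WT, 29 in sgHBG against WT and 32 in sgHS2 against sgHBG, in place of 15, 17, 19 and 20. In this fit 55.5%, 70.2%, 69.1% and 43.7% of all genes were called. With only sgHBG and WT in the fit, 30 of the 36 members tested were called between them, where 72.1% of all genes were called. Without sgHS1-5 2 and 3, 11 were called in sgHS1-5 against sgHS2, in place of 20. Leaving out 1 library gave 9 to 17 calls in sgHBG against sgGal4, 15 to 23 in sgHS2 against WT and 12 to 15 in sgHS2 against sgHBG. Of all genes, 14.4% to 28.2%, 18.6% to 29.1% and 3.82% to 5.03% were called in those fits. Every change of sign of a difference called in at least 1 of the 2 fits came with sgGal4 1 left out. TPI1 ran from −0.26 to 0.36 on leaving out 1 library in sgHS2 against sgGal4 and from −0.20 to 0.42 in sgHS1-5 against sgGal4, the highest value being that without sgGal4 1. With sgHS2 2 omitted too these were 0.21 and 0.40, and with all 4 libraries omitted 0.23 and 0.44. In sgHBG against sgGal4, TPI1 was 0.12 with sgGal4 1 and sgHS2 2 omitted and 0.13 with all 4 omitted, where ENO1 was 0.11 and LDHB 0.075. In sgGal4 against WT, LDHB ran from −0.39 without sgGal4 1 to 0.31, and was −0.38 and −0.39 in those fits. The cause was not tested. A further 139 of 7057 values changed sign without being called in either fit. Replicate numbers did not pair the libraries: 2 of 26 same-numbered pairs had a correlation of deviations above 0.1. A replicate block gave 23 calls in sgHS2, 13 in sgHBG and 27 in sgHS1-5 against sgGal4, 16 in sgGal4 against WT and 16 in sgHS2 against sgHBG. Of all genes, 27.1%, 21.2%, 37.3%, 39.5% and 6.95% were called in these 5 comparisons with the block. No scaling moved the median of all genes by more than 0.1. Depth limited CA9 and ADM, which lay near or under the level of 3 counts in several libraries.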
